A study of Mus musculus with 2 samples.

Results

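Described here are 8 genes, of the 15526 gene symbols in the deposited table, chosen among those that encode liver-secreted proteins with actions on metabolism elsewhere in the body. They were taken by symbol: Fgf21, Angptl4, Angptl6, Lect2, Inhba, Inhbc, Inhbe and Enho. All 8 have a row. The comparison is between 2 liver RNA libraries, 1 for each group, and both came from female NOG-TKm30 mice aged 22 weeks. These mice are severely immunodeficient and carry, in both groups, a mutant herpes simplex virus thymidine kinase (HSVtk clone 30) driven by the enhancer and promoter of the mouse transthyretin gene, which is active in hepatocytes. The control pool received 0% and the AAOT pool 0.3% acetoaceto-o-toluidide, an aromatic amine derivative, for 4 weeks. RNA of 3 mice was mixed for each library, so 1 library stands for each group, no spread between mice can be measured, and a difference carried by 1 mouse of a pool cannot be told apart from one shared by all 3. The labels give the strain background as C57BL and the genotype as NOG-TKm30.

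These proteins work as hormones or as local inhibitors. FGF21 is an endocrine fibroblast growth factor that acts on adipose tissue and brain through FGF receptors bound to the coreceptor beta-Klotho, and its gene in hepatocytes is known to respond to fasting through PPARalpha, to sugar through ChREBP and to amino acid shortage and stress through ATF4. Activins are dimers of inhibin beta subunits that signal through type I and type II receptors to SMAD2 and SMAD3. Hepatocytes are the main source of the beta C and beta E subunits, encoded by Inhbc and Inhbe, and beta E is a liver signal to adipose tissue. ANGPTL4 inhibits lipoprotein lipase, ANGPTL6 is an angiopoietin-related growth factor, LECT2 is a hepatocyte protein that binds the receptors MET and TIE1, and Enho encodes the peptide adropin.

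Start-site sequences are shown first for Fgf21 and Inhbe, because these genes are known targets of ATF4 and both were lower in the AAOT pool. Sequences are from RefSeq on GRCm38.p6, whose promoter table held 6 of the 8 genes, all but Angptl4 and Enho, as windows from 250 bases before to 50 after the start. Capitals mark matches to the motifs searched on both strands: the ATF4 and C/EBP composite element TGATGNAA, the E-box CACGTG, the cyclic AMP response element core TGACG, and the nuclear receptor core site AGGTCA, alone or as direct repeats spaced by 1 or 4 bases. The Fgf21 sequence is the 250 bases before the start (chr7:45615491-45615740, minus strand). The Inhbe sequence is 30 bases around its match (chr10:127352011-127352040, minus strand), which is before the RefSeq start but inside an exon of the longer GENCODE transcript.
Fgf21: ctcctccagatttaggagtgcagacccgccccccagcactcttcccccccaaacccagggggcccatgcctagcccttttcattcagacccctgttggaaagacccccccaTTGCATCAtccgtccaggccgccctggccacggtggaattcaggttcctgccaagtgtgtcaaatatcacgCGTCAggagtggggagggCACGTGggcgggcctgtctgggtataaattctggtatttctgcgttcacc
Inhbe: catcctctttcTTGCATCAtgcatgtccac
Both genes hold the composite element in the same 8 letters and the same orientation, TTGCATCA, which begins 139 bases before the start in Fgf21 and 181 bases before it in Inhbe. It occurs in 3.97% of the 32851 promoters in the table. Fgf21 also holds the E-box, found in 7.15% of promoters, and the cyclic AMP core, found in 20.8%, and its matches do not overlap. The Inhbc window holds AGGTCA, present in 16.3% of promoters, after its start and no match before it. None of these letters was found in the windows of Angptl6, Lect2 or Inhba. These windows were set at starts inside the gene spans given below. That of Inhba, with its 250 bases before the start at chr13:16011601-16011850, lies wholly inside the span of the gene. The direct repeats, present in 0.0396% (spacing 1) and 0.0152% (spacing 4) of promoters, were in none of the 6 windows. A match is a description of letters and not of binding.

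Across the hormones, Inhbc and Inhbe were each lower in the AAOT pool by more than 2-fold, Fgf21 was lower from a very low level, Enho was lower by a smaller ratio, and Angptl4 was higher. Lect2 and Angptl6 differed little between the pools, and the ratio of Inhba had an interval that included equality. Values are in CPM, read counts that the authors scaled for library size. A log2 ratio is log2((AAOT + 1)/(control + 1)) in CPM, whereas each fold is a ratio with nothing added. Its 95% interval comes from the 2 read counts and covers counting error only, so it says nothing of differences between mice. Of the 8 genes, 6 reached a mean of 10 CPM, the level above which genes were counted, and Fgf21 and Inhba did not. Of these 6, 2 were at least 2-fold lower, against 0.425% of the 7761 genes above that level, and 0 were at least 2-fold higher, against 0.773%. At 1.5-fold, 3 of 6 were lower, against 1.39% of genes, and 0 were higher, against 2.07%. The 8 genes were chosen with earlier results of these data known, and the 2 past 2-fold are neighbours in the genome. These shares are therefore a description and not a test of the group. The median log2 ratio of the 6 was -0.40, against -0.02 for the 7761 genes, whose SD was 0.29. Of all these genes 46.4% were above 0, the share against which counts of list genes above or below 0 are to be read.

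**Figure D1:**
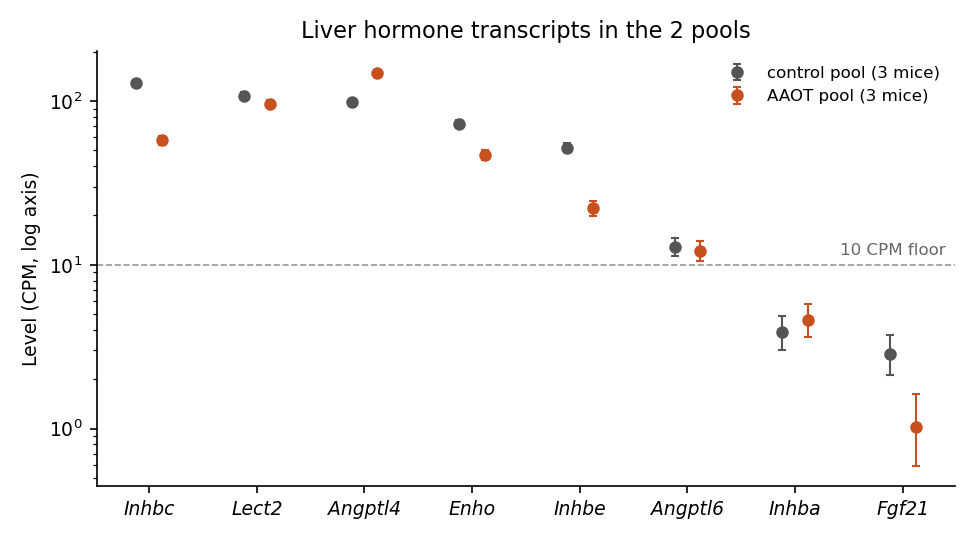
Level of each hormone transcript in the control pool (grey) and the AAOT pool (orange), in CPM on a log axis, with exact 95% Poisson intervals of the read counts as bars. Inhbc, Inhbe, Enho, Fgf21 and, by a small margin, Lect2 are lower in the AAOT pool with separate bars, Angptl4 is higher, and the bars of Angptl6 and Inhba overlap.

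**Figure D2:**
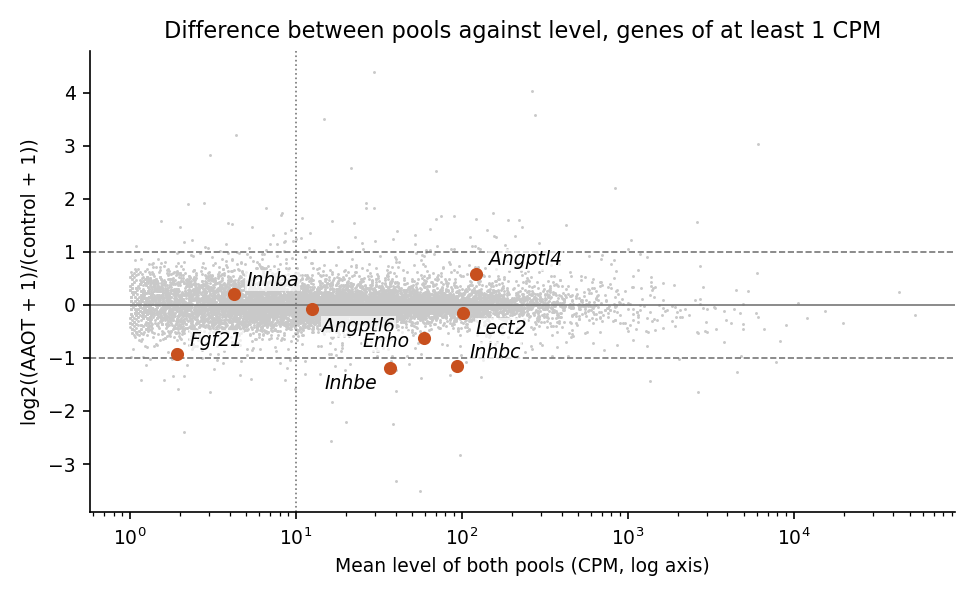
Each point is a gene with a mean of at least 1 CPM, placed by its mean level (CPM, log axis) and its log2 ratio between the pools; the 8 hormone genes are orange, dashed lines mark 2-fold and the dotted line 10 CPM. Inhbc at -1.16 and Inhbe at -1.19 lie below the dashed line, and Fgf21 at -0.93 lies just above it.

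The activin subunit genes Inhbc and Inhbe had the lowest log2 ratios of the hormones with 1 CPM added, while as a plain ratio Fgf21, with few reads, was lowest. Inhbc (chromosome 10, 127356322 to 127370548, GRCm38) measured 129 CPM without AAOT (2401 reads) and 57.5 CPM with it (962 reads). This was 2.25-fold lower (2.09 to 2.43). Inhbe (chromosome 10, 127349402 to 127351848) measured 52.0 CPM without AAOT (966 reads) and 22.2 CPM with it (371 reads). This was 2.35-fold lower (2.08 to 2.65), and the intervals of the 2 genes overlap over most of their width. Among the 7761 genes above 10 CPM, Inhbe had the 21st and Inhbc the 22nd lowest log2 ratio, next to each other. Among genes of like level, meaning a mean within 2-fold of their own, 5 of 2413 had a lower log2 ratio than Inhbc and 10 of 3815 a lower one than Inhbe.

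Inhbc and Inhbe are neighbours on the same strand, 4473 bases apart by RefSeq. Inhbe took 28.7% of the reads of the pair in the control pool (exact binomial 95% interval 27.2% to 30.3%) and 27.8% in the AAOT pool (25.4% to 30.3%). This share does not depend on how the libraries are scaled to each other, and it was nearly the same in both. Together the pair summed to 181 CPM without AAOT and 79.7 CPM with it. The surrounding genes did not share the difference in size. Of the 17 other genes above 10 CPM whose starts lie within 500 kb of that of Inhbc, 0 passed 2-fold, the median log2 ratio was -0.08 and the values ran from -0.45 for the retinol dehydrogenase gene Rdh9 to 0.40 for its relative Rdh16. The nearest, R3hdm2, was at 79.9 and 71.8 CPM. The window was chosen after the values of the pair were seen. Inhbc overlaps an antisense gene, Gm47200, that has no row in the table: 87.8% of the 50-base stretches of Inhbc occur in no other gene's transcripts on either strand.

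**Figure D3:**
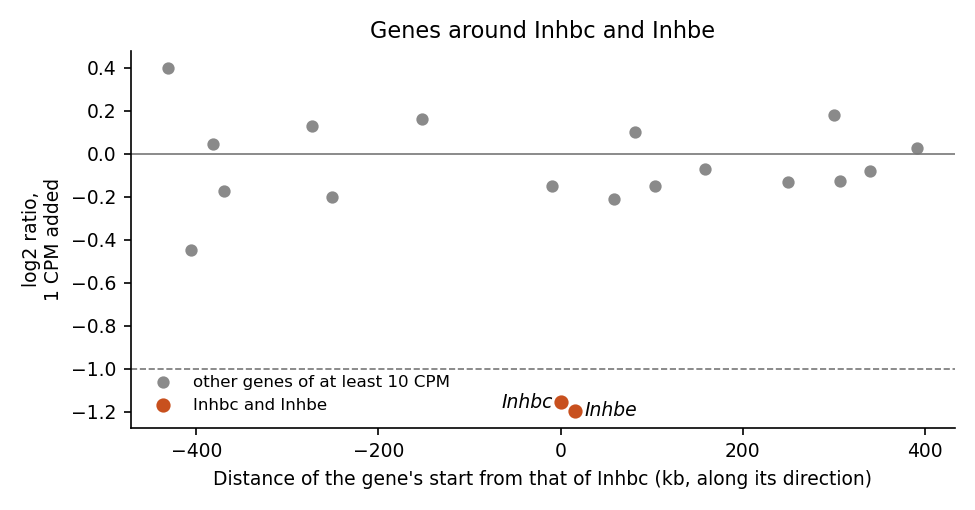
Log2 ratio of AAOT to control (1 CPM added) for genes of at least 10 CPM, against the distance of their start from that of Inhbc in kb. Inhbc and Inhbe (orange) lie below the dashed 2-fold line, and the 17 other genes (grey) lie between -0.45 and 0.40.

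The subunits of the classical activins had ratios on the other side of 1, with intervals that included equality. Inhba (chromosome 13, 16004256 to 16031609), which encodes the beta A subunit of activin A, measured 3.88 CPM without AAOT (72 reads) and 4.60 CPM with it (77 reads). The ratio was 1.19 (0.849 to 1.66), so no difference was detectable at this depth. Inhbb, which encodes beta B, was at 5.22 and 6.27 CPM, a ratio of 1.20 (0.903 to 1.60). The alpha subunit gene Inha has no row in the table used here. The 4 beta subunit genes summed to 190.4 CPM without AAOT and 90.5 CPM with it, of which Inhbc and Inhbe made 95.2% and 88.0% of reads.

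Activin receptors and inhibitors of the pathway above 10 CPM all differed by less than 2-fold, and Skil had the lowest ratio among them. Of 7 receptor and coreceptor genes above 10 CPM, 0 passed 2-fold, 5 were below 0 and the median log2 ratio was -0.11. These 7 include Bmpr2, Tgfbr1, Tgfbr2 and Tgfbr3, named for bone morphogenetic proteins or transforming growth factor beta. The count and median are therefore not of activin receptors alone. The type II receptor gene Acvr2a was at 58.2 and 53.2 CPM, and the type I receptor gene Acvr1b at 15.7 and 14.5 CPM. Acvr2b was at 3.45 and 4.06 CPM. Acvr1c, which encodes ALK7, the receptor through which activin E acts on fat cells, had 4 reads without AAOT and 7 with it. Among the inhibitors, 4 reached 10 CPM, 4 of 4 were below 0, 0 passed 2-fold and the median was -0.45. Skil, which encodes the SMAD corepressor SnoN and is itself induced by SMADs, was at 40.9 and 21.9 CPM, 1.87-fold lower (1.65 to 2.12). Smad7, an inhibitory SMAD that SMAD signalling induces, was 1.45-fold lower (1.32 to 1.60). Follistatin, Fst, which binds activins in the extracellular space, was just under 10 CPM on average, at 10.1 and 5.08 CPM, 1.98-fold lower (1.53 to 2.59). Fstl3, which encodes another activin-binding protein, had 2 reads in each pool.

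The SMADs themselves, named here outside the rule for named genes, differed little, while some SMAD targets were lower. Smad2 was at 28.4 and 33.5 CPM, Smad3 at 29.9 and 29.3 CPM, and Smad4 at 54.8 and 50.7 CPM. Of 7 genes of the list of effectors and targets above 10 CPM, 6 were below 0, 0 passed 2-fold and the median was -0.25. The 7 are Smad2, Smad3, Smad4, Tgif1, Id2, Id3 and Hamp. Id3, like Id2 and Hamp a target of bone morphogenetic proteins, was 1.86-fold lower (1.64 to 2.12). The count and median are therefore not a measure of activin signalling. Below 10 CPM, and named after its values were seen, Ctgf was at 5.65 and 10.4 CPM, 1.84-fold higher (1.44 to 2.37). Stellate cells also express Fst and Ctgf, and the 11 stellate cell and fibroblast markers summed to 589.5 CPM without AAOT and 513 CPM with it, with 7 of 7 above 10 CPM below 0 and a median of -0.13. Their part in these values was not tested. In bulk liver, fewer cells of a type and less RNA per cell cannot be told apart.

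**Figure D4:**
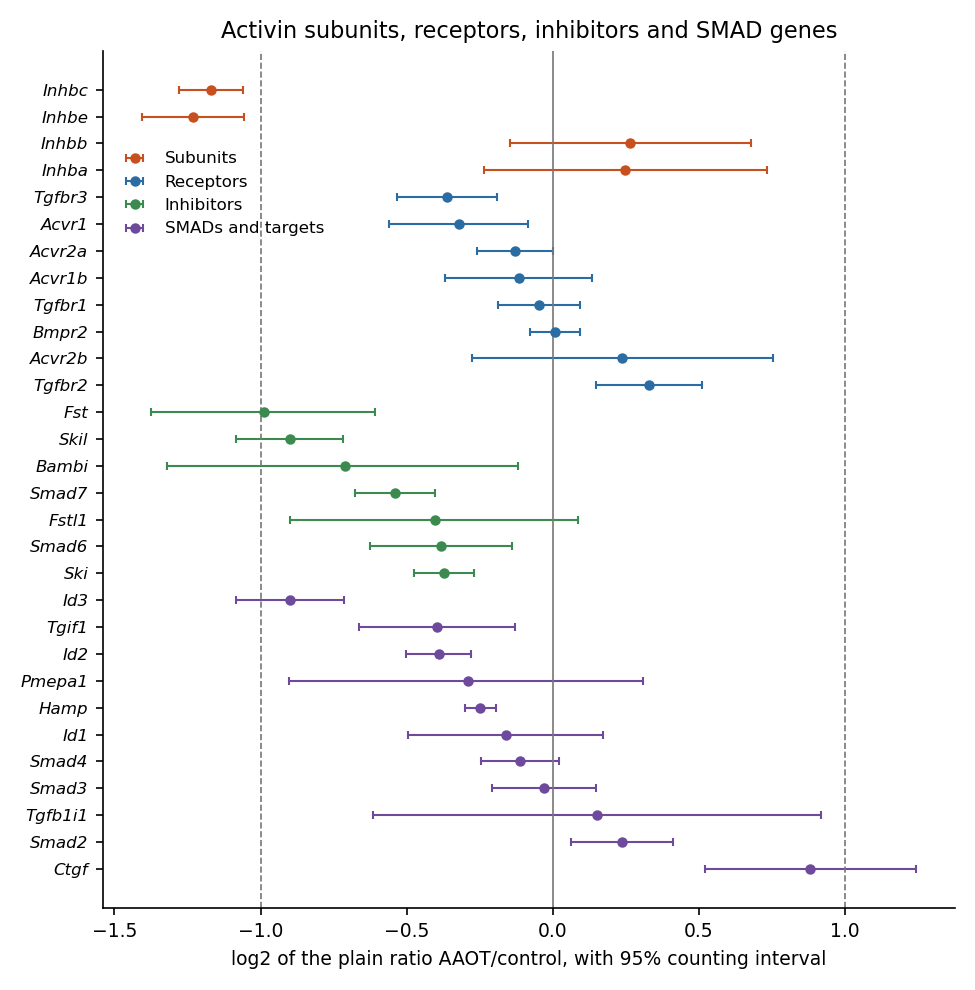
Plain log2 ratio of AAOT to control, with the 95% counting interval as a bar. Shown are genes of the activin lists, with receptors and targets of related ligands, that are reported here and have at least 20 reads over both pools. Dashed lines mark 2-fold. Inhbc and Inhbe are lower while Inhba and Inhbb have intervals that include 0, and the inhibitors are all on the lower side.

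Fgf21 (chromosome 7, 45613890 to 45615490) was at a low level in both pools. Without AAOT it measured 2.85 CPM (53 reads) and with AAOT 1.02 CPM (17 reads). The ratio was 2.81-fold lower with a wide interval of 1.60 to 5.18. After the added constant the log2 ratio was -0.93, and 17 of 2158 genes of like level had a lower one.

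Among the receptor genes for FGF21, Klb and Fgfr4 were close between the pools and Fgfr1 had a lower ratio with an interval that included equality. Klb, which encodes beta-Klotho, measured 67.3 CPM without AAOT and 67.8 CPM with it. Fgfr4, the main hepatocyte FGF receptor, was at 93.1 and 83.1 CPM, a ratio of 0.892 (0.831 to 0.958). Fgfr1, the receptor that FGF21 uses in adipose tissue, was at 2.85 and 1.97 CPM, a ratio of 0.691 (0.433 to 1.09) whose interval overlaps that of Fgf21. Fap, the protease that inactivates circulating FGF21, had 1 read and 2 reads. Of 5 genes of this list above 10 CPM, 0 passed 2-fold and the median was -0.14. The lowest was Fgf1, at 146 and 109 CPM.

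Known regulators of Fgf21 went in both directions. Of 17 above 10 CPM, 1 passed 2-fold upward and 1 downward. The median was -0.04, which became 0.01 under 1 of 5 other scalings of the libraries. Ppara was at 552 and 375 CPM, 1.47-fold lower (1.42 to 1.52), and Creb3l3, which encodes the partner factor CREBH, at 320.4 and 259 CPM, 1.24-fold lower (1.19 to 1.29). Mlxipl, which encodes ChREBP, was at 162 and 270.5 CPM, 1.67-fold higher (1.59 to 1.75). Atf4 was at 77.8 and 69.5 CPM. The 2 genes past 2-fold were the coactivator Ppargc1a, at 8.19 and 17.8 CPM, and the orphan receptor Nr4a1, at 33.9 and 6.57 CPM, 5.16-fold lower (4.21 to 6.38).

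The target lists of these regulators, counted without the 8 hormones, gave the setting for Fgf21, Inhbe and Angptl4. For PPARalpha, of which Fgf21 and Angptl4 are targets, 16 of 20 genes above 10 CPM were below 0, 1 gene (Vnn1) passed 2-fold downward, and the list median was -0.28. Fgf21 lay below that median and Angptl4 above it. Angptl4 was not alone in being higher, since 4 of the 20 list genes were above 0. Of these, Acot3, named outside the rule, was at 58.2 and 96.4 CPM and 0.72 in log2, above Angptl4. For ATF4, of which Fgf21 and Inhbe are targets, 6 of 7 were above 0, 1 passed 2-fold upward (Gdf15, at 6.41 and 17.9 CPM) and the list median was 0.08. Outside the rule for named genes, Trib3 was at 16.5 and 17.4 CPM and Sesn2 at 19.1 and 19.8 CPM. Among the genes above 0, the ratio intervals of Trib3, Sesn2 and Slc3a2 included equality, and those of Vldlr, Cth and Gdf15 did not. Fgf21 and Inhbe were below 0. Asparagine synthetase, Asns, had 2 reads and 1 read. Among ATF4 targets below 10 CPM, named after their values were seen, Chac1 was 2.65-fold lower (1.74 to 4.12), from 91 and 31 reads, and Atf3 2.46-fold lower (1.20 to 5.44), from 30 and 11 reads. In the same range Ddit4 was 1.33-fold higher (1.06 to 1.67), from 144 and 172 reads, and Psat1 had 0 and 5 reads. For ChREBP, 14 of 16 were above 0, 4 were at least 2-fold higher, namely Elovl6, Thrsp, Fasn and Acly, and the median was 0.54, so Fgf21 differed in the opposite direction to this list.

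**Figure D5:**
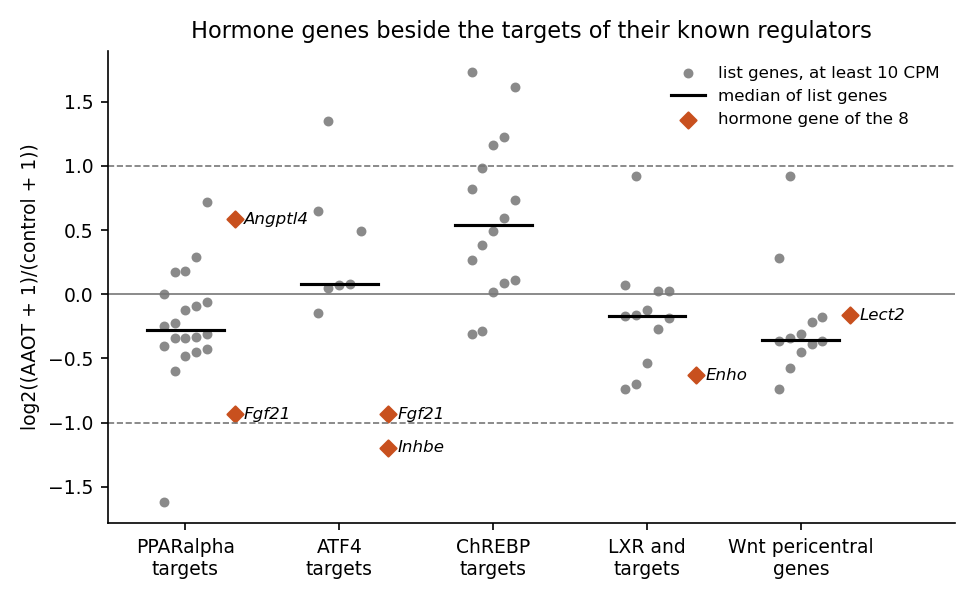
Log2 ratios of genes above 10 CPM in 5 lists named for regulators (grey points, black bar at the median). Orange diamonds are hormone genes of the PPARalpha, ATF4 and Wnt lists, and Enho, placed beside the LXR list though not part of it. The LXR column also holds the LXR genes themselves, and no hormone gene is marked beside ChREBP. Fgf21 at -0.93 and Inhbe at -1.19 lie below every other ATF4 target shown, but Fgf21 is itself below 10 CPM. Other ATF4 targets below that level are not shown. Among them Chac1 was at -1.05, lower than Fgf21, and Ddit4 was at 0.37. Angptl4 at 0.58 lies above the PPARalpha median of -0.28.

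Angptl4 (chromosome 17, 33774900 to 33781575) was the hormone with the highest ratio. It measured 98.1 CPM without AAOT (1822 reads) and 148 CPM with it (2470 reads). At 1.504-fold higher (1.42 to 1.60) it was just past 1.5-fold as a plain ratio and, at 0.58 in log2, just short of it after the added constant. Among genes of like level, 53 of 1938 had a higher log2 ratio. Angptl6 (chromosome 9, 20873808 to 20879822) measured 12.9 CPM without AAOT (239 reads) and 12.1 CPM with it (203 reads). Its ratio of 0.943 (0.778 to 1.14) includes equality, so no difference was detectable. Part of Angptl6 lies opposite the gene A230050P20Rik, at 11.8 and 16.4 CPM, and 85.8% of its 50-base stretches are in no other transcript on either strand. Whether reads were counted by strand is not stated in the labels.

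Angptl8, which encodes another angiopoietin-like protein that acts on lipases and is listed under the older symbol Gm6484, was at 9.96 and 9.62 CPM, a ratio of 0.966 (0.777 to 1.20). Lipoprotein lipase, Lpl, the target of ANGPTL4, was at 18.3 CPM in both pools, and hepatic lipase, Lipc, at 230.5 and 194 CPM. In the list of lipases and their helpers, 0 of 14 above 10 CPM passed 2-fold, 8 were above 0 and the median was 0.02. The fatty acid receptor Cd36 was the highest, at 28.5 and 42.5 CPM, a ratio of 1.49 (1.33 to 1.67), and Apoc1 the lowest, at 1.41-fold lower (1.38 to 1.43).

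Lect2 (chromosome 13, 56529734 to 56548559) measured 108 CPM without AAOT (2005 reads) and 96.4 CPM with it (1613 reads). This was 1.12-fold lower (1.05 to 1.20), and 314 of 2267 genes of like level had a lower log2 ratio, so the difference was of a size common among genes. Its binding partners were also close between pools. Met, the hepatocyte growth factor receptor, was at 167 and 140 CPM, 1.19-fold lower (1.13 to 1.26), and Tie1, an endothelial receptor, at 20.5 and 22.1 CPM. Lect2 is a known target of beta-catenin in pericentral hepatocytes. Of 12 other Wnt-dependent pericentral genes above 10 CPM, 10 were below 0, 0 passed 2-fold and the median was -0.35. Lect2, at -0.16, lay above that median.

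Enho (chromosome 4, 41638144 to 41640302), the adropin gene, measured 72.8 CPM without AAOT (1352 reads) and 46.7 CPM with it (781 reads). It was 1.56-fold lower (1.43 to 1.71), and 35 of 3202 genes of like level had a lower log2 ratio. Adropin is reported to be repressed when the sterol receptor LXR is active. The gene of LXRalpha, Nr1h3, was at 64.9 and 59.5 CPM. Among LXR and its targets, with the reported adropin receptor gene Gpr19, 8 of 12 genes above 10 CPM were below 0, 0 passed 2-fold and the median was -0.17. The lowest were Abcg8 and Abcg5, at -0.74 and -0.70 in log2, and the highest was Pltp, the phospholipid transfer protein, at 21.9 and 42.3 CPM. Gpr19 had 26 reads and 28 reads.

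Other liver-secreted factors that act on metabolism went both ways. Of 16 above 10 CPM, 1 gene passed 2-fold upward (Gdf15) and 1 downward (Igfbp1), 9 were below 0 and the list median was -0.22. Igfbp1, at -1.01, no longer passed 2-fold under 4 of 5 other scalings. Fgl1, a secreted fibrinogen-like protein, was at 387 and 227.5 CPM, 1.70-fold lower (1.63 to 1.77). Igf1, the main growth hormone effector, was 1.41-fold lower (1.38 to 1.44). Leap2, which encodes an antagonist of the ghrelin receptor, was at 32.5 and 34.8 CPM, a ratio with an interval that included equality (0.954 to 1.20). Below 10 CPM, and named after their values were seen, the adipose-acting growth factor gene Nrg4 was 2.52-fold higher (1.69 to 3.82), from 37 and 84 reads, and Serpina12, which encodes vaspin, was 3.19-fold lower (2.20 to 4.73), from 131 and 37 reads.

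The order of the hormone transcripts by level differed between the pools. Levels of different genes were set per kb of the longest coding transcript in GENCODE, since longer transcripts give more reads. In the control pool Lect2 was highest, at 129 CPM per kb, followed by Inhbc at 69.6, Enho at 57.4, Angptl4 at 29.7, Inhbe at 9.78, Angptl6 at 8.14, Fgf21 at 3.00 and Inhba at 0.607 CPM per kb. In the AAOT pool Lect2 stayed first, at 115 CPM per kb, and Angptl4 came next, at 44.6, ahead of Enho at 36.8 and Inhbc at 30.9 CPM per kb. Angptl6, at 7.67 CPM per kb, then stood above Inhbe, at 4.17. Counting intervals of neighbours overlapped for Inhbe and Angptl6 in the control pool and for Fgf21, at 1.07, and Inhba, at 0.720 CPM per kb, in the AAOT pool. The place of Inhbe depends on its transcript: GENCODE gives 5319 bases, while RefSeq places the whole gene in 2447 bases, over which Inhbe would be at 21.3 and 9.06 CPM per kb, above Angptl6 in both pools.

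Both libraries carried the markers of liver, and the markers of other tissues were scarce. The control library held 18801241 reads and the AAOT library 16528533 reads. All 10 hepatocyte markers were above 10 CPM, with a median log2 ratio of -0.15 and 0 past 2-fold. The 11 Kupffer cell and macrophage markers summed to 396 and 414 CPM, and the 10 sinusoidal endothelial markers to 645 and 650.2 CPM. The 8 cholangiocyte markers summed to 64.4 and 48.5 CPM. Of 6 adipocyte markers only Adrb3 was listed, at 5.44 and 6.15 CPM, with no row for the defining Adipoq, Lep and Plin1, and no pancreas or skeletal muscle marker reached 1 CPM.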

How the data were processed

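The authors deposited a single CPM table with a column for each library, which was matched to its sample by the code in the title. Per the submitters' processing notes, Trimmomatic 0.38, Bowtie2, RSEM, edgeR and mm10 were used, with no roles given. Per the labels' protocols, libraries were directional, from 200 ng of rRNA-depleted total RNA. All deposited values (100%) were whole multiples of 1 step per column within a relative tolerance of 1e-06, which gave back whole reads, 18801241 and 16528533. With 1 library per group, no count model was run on them and no p-value was computed. Ratio intervals are exact 95% Clopper-Pearson intervals conditional on the sum of 2 read counts, and they treat reads as independent molecules.

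Genes with a mean of at least 10 CPM were counted, and the log2 ratio has 1 CPM added. The rule for named genes took the 8 hormone genes, listed partners, and in each list the genes past 2-fold or otherwise up to 4 farthest from no change. The members and lists were chosen with earlier results of these data known. Some genes that the rule names are not reported here. Symbols without a row were looked up through RefSeq synonyms. Positions are RefSeq on GRCm38.p6; lengths and overlaps are GENCODE M21. The interval step was tested on simulated reads. Alternatives were 5 scalings, constants of 0.1 or 5 CPM, a floor of 1 CPM, 50 CPM or no floor, thresholds of 1.5-fold or 4-fold, and wider or narrower like-level windows. The software was Python 3.11.15 with scipy 1.17.1, numpy 2.4.6, pandas 2.3.3 and, for figures, matplotlib 3.10.9.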

Additional observations from a re-analysis of the deposited data

How the results depend on the processing

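The log2 ratio of each of the 8 hormone genes kept its sign under all 5 scalings and both added constants. Over these 7 settings Inhbc ran from -1.17 to -1.10, Inhbe from -1.23 to -1.07, and Fgf21, the gene with the fewest reads, from -1.40 with 0.1 CPM added to -0.38 with 5 CPM added. The 60 higher and 33 lower genes past 2-fold became 37 and 15 with a floor of 50 CPM, where 1 hormone gene, Inhbc, stayed lower, and 94 and 60 with no floor. With a floor of 1 CPM, 55 genes were lower. At 1.5-fold 161 genes were higher and 108 lower, and at 4-fold 8 and 6, with 0 hormone genes lower. Of 600 counts in the pathway and marker lists under an alternative, 548 stayed within 1.5 times the main count. Most main counts were 0, and a count that stayed at 0 was taken as unchanged, so this share says little about stability. Igfbp1 fell short of 2-fold under 4 of 5 scalings. The medians of the Fgf21 regulators and the sinusoidal markers took the other sign under 1 of 5 scalings, without the ribosomal RNA gene Rn45s, those of the angiopoietin-like, lipase and fasting lists under another floor, and that of all genes under some scalings, which ran from -0.03 to 0.03. No paired analysis was possible because each group is 1 pooled library. Depth limits Fgf21 and Inhba most.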

Other observations

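Several hormone genes are known to follow feeding state and the time of day, and genes of both programmes differed between the pools. In the list of fasting and feeding genes, 1 of 14 above 10 CPM was at least 2-fold higher, Lpin1, at 93.5 and 285 CPM, and 1 was at least 2-fold lower, Igfbp1, at 232 and 115 CPM. Outside the rule for named genes, the gluconeogenic gene Pck1 was at 2626 and 2844 CPM. Of 16 clock genes above 10 CPM, 10 were above 0, 1 was at least 2-fold higher and the median log2 ratio was 0.05. Per3 was at 12.1 and 25.5 CPM and Per1 at 27.2 and 51.7 CPM, while Arntl was at 14.5 and 14.3 CPM and Nr1d1 at 123 and 114 CPM. The labels state neither feeding nor hour of collection, and their part in the values of Fgf21, Angptl4, Inhbe and Enho was not tested.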
